A study of Mus musculus with 4 samples.

Results

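The genes described here encode the machinery that builds ribosomes in the nucleolus, and 54 were listed by name for that function: 6 of RNA polymerase I (Pol I) and its transcription of ribosomal DNA, 9 of small nucleolar ribonucleoproteins (snoRNPs), 16 of small-subunit assembly, 19 of large-subunit assembly and 4 multifunctional nucleolar proteins. The ribosomal proteins themselves are not included. A member counted as measured when a probe set carried its symbol alone in the annotation of the array, which held for 47 of the 54, out of 8251 genes measured in all. Dkc1, Nop14, Nat10, Nob1, Noc2l and Lyar had no such probe set here, and Mrto4 was named only on a probe set that lists several genes, so these 7 were not analysed here. Members were chosen by function with the log2 changes and adjusted p-values of this same comparison already known, so all their changes below are a description, and no set test or p-value over the list is given.

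RNA from mouse cells was hybridised to 4 single-colour oligonucleotide arrays, of which 2 are titled Hemangioblast and 2 hCD4. All cells derive from 1 embryonic stem (ES) cell line, Scl+/hCD4, in which human CD4 on the surface reports expression of Scl, a transcription factor of early blood. Per the labels, ES cells were kept on STO feeder cells with LIF, then differentiated in serum for 2.75 days into embryoid bodies, which were sorted for Flk-1 and human CD4 to obtain hemangioblasts, precursors of blood and endothelium, or replated to give blast colonies that were picked and pooled. The sample sources name the titled groups differentiated hemangioblasts and cultured hCD4 ES cells, whereas the design text speaks of hCD4 and Blast. Which preparation each pair of arrays holds is therefore not settled, and the titles alone are used as names here. Mesoderm and hemangioblast markers, given below, were lower on the arrays titled Hemangioblast, so the title should not be read as the identity of the cells. No treatment or allele is given that differs between the groups, and no label ties the arrays of a group to independent cultures. The p-values may therefore reflect technical spread alone.

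Ribosome assembly starts when Pol I transcribes ribosomal DNA into a long precursor RNA. Box C/D snoRNPs guide methylation and box H/ACA snoRNPs guide pseudouridylation of that precursor, the U3 snoRNP and its partners direct the early cuts on the small-subunit side, and large sets of helicases, GTPases and scaffold proteins then shape the large subunit. The activity of this pathway is known to follow the growth rate of a cell and to be high in ES cells.

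Most of the measured members had less signal on the Hemangioblast arrays. Of 47, 10 fell at an adjusted p of 0.05 over all 12422 probe sets and 0 rose, whereas 1.96% of all genes were lower and 3.39% higher by this rule (limma with Benjamini-Hochberg adjustment). Those 10 were Tsr1, Nop2, Rrp1b, Rrs1, Wdr74, Ebna1bp2, Ppan, Polr1a, Rrp9 and Nop56, and their fold differences lay between 1.69 and 2.04. At an unadjusted p under 0.05 in the same fit, 31 members were lower and 0 higher, beside 711 lower and 791 higher among all 8251 genes. Log2 changes were below 0 for 43 of the 47 and for 47.4% of all genes. Both Hemangioblast arrays lay below both hCD4 arrays for 42 members and above them for 0, where 22.0% of all genes were lower and 24.5% higher without overlap. The median log2 change of the 47 was -0.55, a 1.46-fold lower level, against 0.02 over all genes. All 47 had a mean scaled intensity of at least 100 over the 4 arrays, and the median over the 6260 genes with a mean of at least 100 was -0.0015.

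The count of 10 changed with the arrays and the settings, more than the size of the changes did. Without hCD4 replicate 1 or without hCD4 replicate 2 it was 0, with 21 and 20 members lower at an unadjusted p under 0.05 and median log2 changes of -0.58 and -0.54. Without Hemangioblast replicate 2 it was 4, with a median of -0.38. Each of these fits leaves 1 array in a group, which is assumed to vary like the pair of the other group. A lost call there therefore cannot by itself tell whether the difference was smaller. The count was also 0 without scaling between arrays and 0 without an intensity trend in limma's variance model. There 22 and 21 were lower at an unadjusted p under 0.05 and the medians were -0.52 and -0.55. It was 17 when dim probe sets were left out. Counts over all genes at an unadjusted p were not computed for the alternatives. Singly, the 10 members passed in 3 to 7 of the 9 alternative fits that use all 4 arrays and in 0 to 2 of the 4 fits with 1 array left out. The direction moved less, with 41 to 46 of the 47 log2 changes below 0 under each of these and the other alternatives tried.

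**Figure D1:**
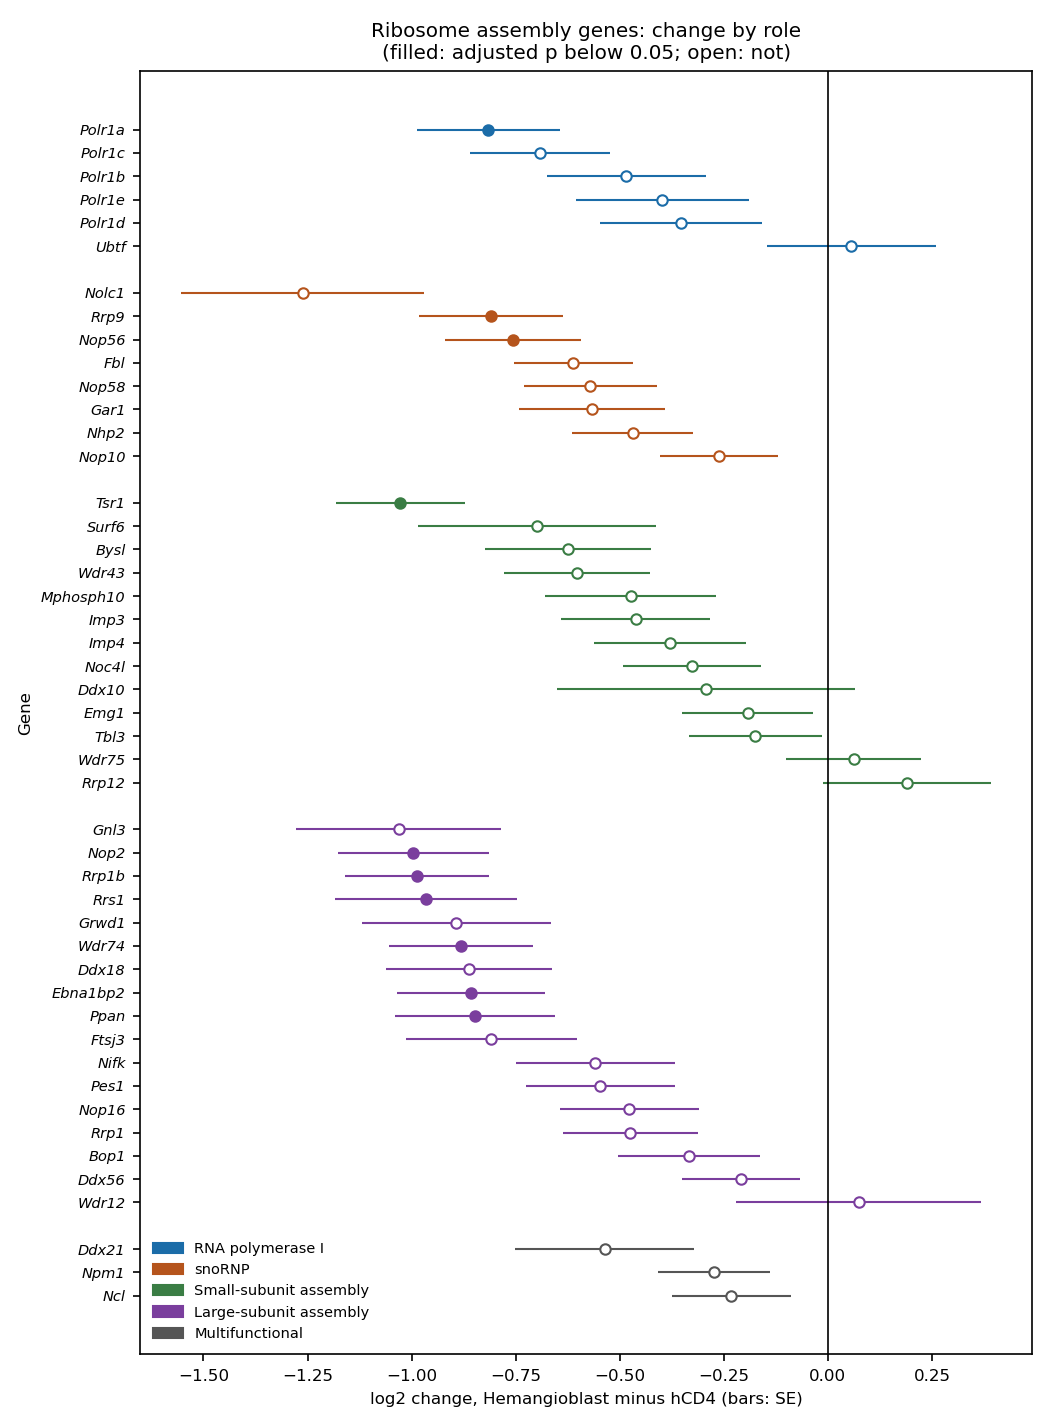
Log2 change of each of the 47 measured members, Hemangioblast minus hCD4, with its standard error as a bar, ordered by role and size. Filled points passed an adjusted p of 0.05 over all probe sets, and 43 of the 47 points lie left of 0.

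By the median over these genes, arrays of one group differed less than the groups did. Over the members the median log2 difference was -0.42 and -0.46 for Hemangioblast replicate 1 against hCD4 replicates 1 and 2, and -0.62 and -0.69 for Hemangioblast replicate 2 against the same arrays. Within groups the median difference, replicate 1 minus replicate 2, was 0.16 for Hemangioblast and -0.08 for hCD4. These medians keep the sign, so opposite differences cancel. Single members could differ more within a group than between groups, as Ddx10, Ddx21 and Ubtf did. Hemangioblast replicate 2 was the lowest array for 30 members and hCD4 replicate 2 the highest for 30. The Gapdh control, whose 3' over 5' signal reflects RNA integrity, did not separate the groups, with ratios of 1.33 and 1.03 for Hemangioblast and 1.13 and 1.03 for hCD4. The actin control did not either, at 1.63 and 1.16 against 1.36 and 1.12. Both ratios were highest on Hemangioblast replicate 1.

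**Figure D2:**
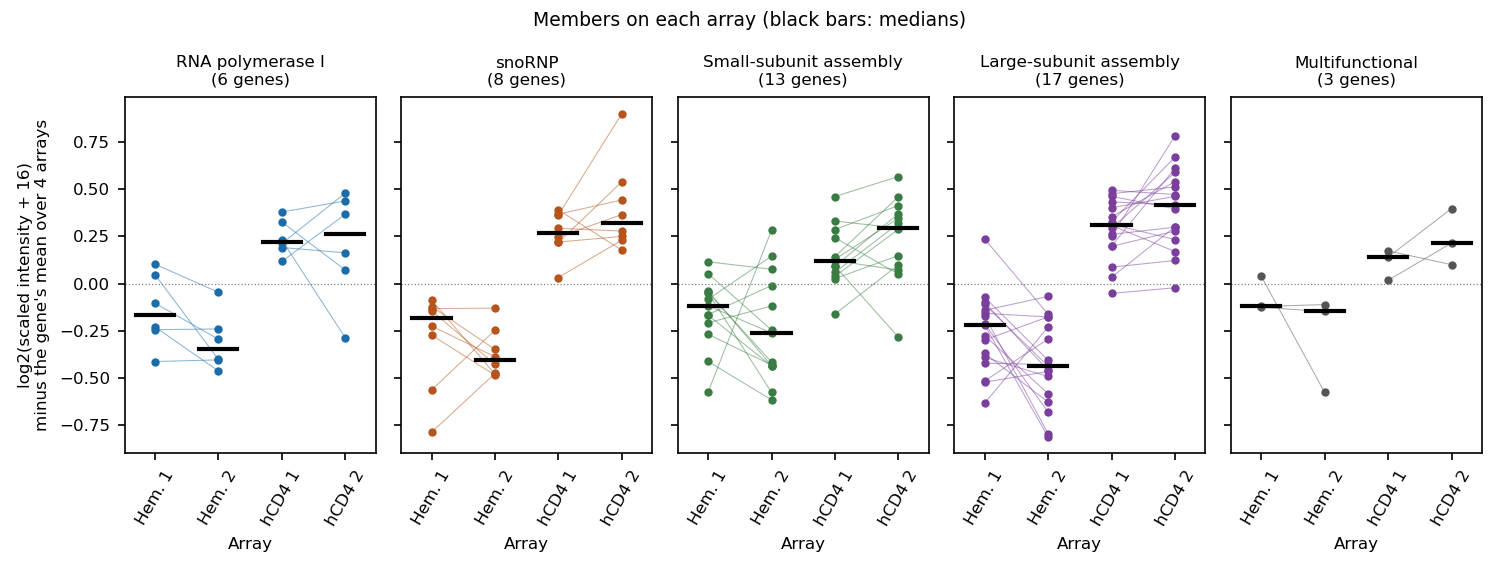
Log2(scaled intensity + 16) of each member minus its own mean over the 4 arrays, by array and role, with thin lines joining the 2 arrays of a group and black bars at the medians. In each of the 5 roles both Hemangioblast medians lie below both hCD4 medians.

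Scaled intensities are linear signals brought to one trimmed mean per array, while log2 changes and folds come from log2 of that intensity plus 16. Differences are taken across arrays within a probe set. The brightness of probe sets served to choose the one that stands for a gene and the genes whose arrays are printed. Brightness also entered limma's variance model as the intensity trend, and so the p-values. It further set which probe sets were left out as dim and which genes entered the median over brighter genes. In the summed marker signals below, brighter genes weigh more. As these are bulk samples, fewer cells of a type and less RNA per cell cannot be told apart.

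Among the Pol I genes, 1 of 6 fell and 0 rose, with a median log2 change of -0.44. Polr1a, the largest catalytic subunit, read 348 and 350 on the Hemangioblast pair and 614 and 640 on the hCD4 pair. The 2 arrays of each group were close and the groups lay 1.76-fold apart (log2 change -0.82, SE 0.171, adjusted p = 0.0366). Polr1c, a subunit shared with RNA polymerase III, read 897 and 761 against 1224 and 1475, which did not overlap but missed the threshold (log2 change -0.69, SE 0.168, adjusted p = 0.0618). Polr1b, the second catalytic subunit, had a log2 change of -0.48 (SE 0.192), Polr1e, a subunit specific to Pol I, of -0.40 (SE 0.209), and Polr1d, shared with RNA polymerase III, of -0.35 (SE 0.194), none past the threshold. Ubtf, the factor that binds and opens ribosomal DNA, stood apart from the polymerase subunits in that its arrays overlapped, at 798 and 719 against 874 and 606 (log2 change 0.06, SE 0.203, adjusted p = 0.948). With median scaling, which moves the median over all probe sets from 0.039 to -0.033, its log2 change was -0.028.

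Of 8 measured snoRNP genes, 2 fell and 0 rose, the 8 log2 changes were all below 0, and their median was -0.59. Rrp9, a protein of the U3 snoRNP, was at 510 and 638 (Hemangioblast) against 986 and 1039 (hCD4) (log2 change -0.81, SE 0.172, adjusted p = 0.0378). Nop56, a scaffold protein of every box C/D snoRNP, was at 2209 and 1905 against 3109 and 3887, so that its hCD4 arrays were the more spread pair (log2 change -0.76, SE 0.164, adjusted p = 0.04). Nop56 passed in 4 of the 9 alternative fits with all arrays, and not with median scaling (adjusted p = 0.0947), quantile normalization (0.0522) or averaged probe sets (0.0857), and of the fits with 1 array left out it passed in that without Hemangioblast replicate 1. Its partners in the same particle came close in size. Fbl, the methyltransferase fibrillarin, read 2429 and 2169 against 3373 and 3664 (log2 change -0.61, SE 0.142, adjusted p = 0.053), and Nop58, the paralog of Nop56, gave -0.57 (SE 0.16, adjusted p = 0.101). In the box H/ACA particle Gar1 (-0.57, SE 0.175), Nhp2 (-0.47, SE 0.144) and Nop10 (-0.26, SE 0.141) did not pass, and Dkc1, its pseudouridine synthase, was not measured. Nop10 was at 3357 and 3363 against 3765 and 4321. Nolc1, a phosphoprotein that accompanies snoRNPs, had the largest log2 change of all members, -1.26 (SE 0.293), with 86.3 and 111 against 211 and 313. Its adjusted p of 0.0527 missed the threshold.

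For small-subunit assembly, 1 of 13 measured genes fell and 0 rose, with a median log2 change of -0.38. Tsr1, which joins the maturing small subunit until its last steps in the cytoplasm, was at 755 and 654 (Hemangioblast) against 1396 and 1503 (hCD4). It had the smallest adjusted p of all members (log2 change -1.03, SE 0.156, adjusted p = 0.00915), and each of the 4 pairs of arrays differed by 1.83 to 2.27-fold. Mphosph10, Imp3 and Imp4, which form a complex on the U3 snoRNP, had similar log2 changes of -0.47 (SE 0.205), -0.46 (SE 0.179) and -0.38 (SE 0.182), none past the threshold. Bysl (-0.62, SE 0.2), a late assembly factor, and Wdr43 (-0.60, SE 0.175), part of the early processome, did not pass either, nor did Surf6 (-0.70, SE 0.286), Noc4l (-0.33, SE 0.165), the methyltransferase Emg1 (-0.19, SE 0.157), the helicase Ddx10 (-0.29, SE 0.358) or Tbl3 (-0.17, SE 0.16). Signals without a lower Hemangioblast mean came from Wdr75, a processome protein, at 1499 and 1759 against 1420 and 1703, and from Rrp12, at 436 and 424 against 429 and 327. Both overlapped between groups (log2 change 0.06, SE 0.162, and 0.19, SE 0.202), and with the common shift of median scaling Wdr75 was at -0.024.

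Large-subunit assembly held the most calls, with 6 of 17 measured genes lower, 0 higher and a median log2 change of -0.85. Nop2, a methyltransferase of the large ribosomal RNA, was at 744 and 620 (Hemangioblast) against 1215 and 1545 (hCD4) (log2 change -0.995, SE 0.18, adjusted p = 0.0198). Rrp1b read 309 and 322 against 633 and 649, with arrays of a group much closer than the groups (log2 change -0.99, SE 0.173, adjusted p = 0.0173). Its paralog Rrp1 had a smaller log2 change of -0.47 (SE 0.161) that did not pass. Rrs1, which helps to bring the 5S RNA particle into the precursor, was at 609 and 390 against 974 and 959, and here the Hemangioblast arrays were the spread pair (log2 change -0.96, SE 0.219, adjusted p = 0.0485). Rrs1 passed in 3 of the 9 alternative fits with all arrays, and not with an added constant of 64 (adjusted p = 0.0576), median scaling (0.0772), quantile normalization (0.0721) or averaged probe sets (0.0503). Of the fits with 1 array left out it passed in that without Hemangioblast replicate 1.

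Wdr74, a WD-repeat protein of the early large-subunit precursor, was at 511 and 475 against 830 and 1022 (log2 change -0.88, SE 0.174, adjusted p = 0.0283). Ebna1bp2, an early assembly factor, was at 506 and 405 against 853 and 814 (log2 change -0.86, SE 0.177, adjusted p = 0.0342). Ppan, another assembly factor, was at 237 and 236 against 441 and 436 (log2 change -0.85, SE 0.192, adjusted p = 0.0482), the closest agreement within groups among the called genes. Several members with changes of like size narrowly missed the threshold. Gnl3, the GTPase nucleostemin of stem and progenitor cells, was at 755 and 495 against 1051 and 1526, wide in both groups (log2 change -1.03, SE 0.246, adjusted p = 0.0582). The helicase Ddx18 differed by a log2 change of -0.86 (SE 0.199, adjusted p = 0.0518), Grwd1 of -0.89 (SE 0.228, adjusted p = 0.0728) and the methyltransferase Ftsj3 of -0.81 (SE 0.205, adjusted p = 0.072).

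None of the 3 genes of the PeBoW complex, which is needed for processing of the large-subunit RNA, passed the threshold. Pes1 was at 580 and 460 against 784 and 740 (log2 change -0.55, SE 0.179), Bop1 at 568 and 560 against 650 and 786 (-0.33, SE 0.171) and Wdr12 at 139 and 101 against 111 and 113 (0.07, SE 0.295). The arrays of Wdr12 overlapped, and with quantile normalization its log2 change was -0.052. Differences between the 3 genes were not tested. The remaining members, Nifk (-0.56, SE 0.19), Nop16 (-0.48, SE 0.167) and the helicase Ddx56 (-0.21, SE 0.141), did not pass, and Ddx56 was at 1213 and 1277 against 1423 and 1459.

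Of the multifunctional nucleolar proteins, 0 of 3 measured genes passed the threshold in limma's fit and 1 had an unadjusted p under 0.05. Ncl, nucleolin, a major RNA-binding protein of the nucleolus, was at 7009 and 7055 (Hemangioblast) against 7715 and 8846 (hCD4) (log2 change -0.23, SE 0.143). Npm1, nucleophosmin, a histone and ribosome chaperone, was at 4579 and 4510 against 5634 and 5357 (-0.27, SE 0.134). The helicase Ddx21 was at 1604 and 1041 against 1720 and 2059 (-0.54, SE 0.215, adjusted p = 0.259), the widest spread of the 3. Its log2 change was -0.84 without Hemangioblast replicate 1, the higher of that pair, so its size depended on which Hemangioblast array was kept. In all 3 the groups did not overlap.

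**Figure D3:**
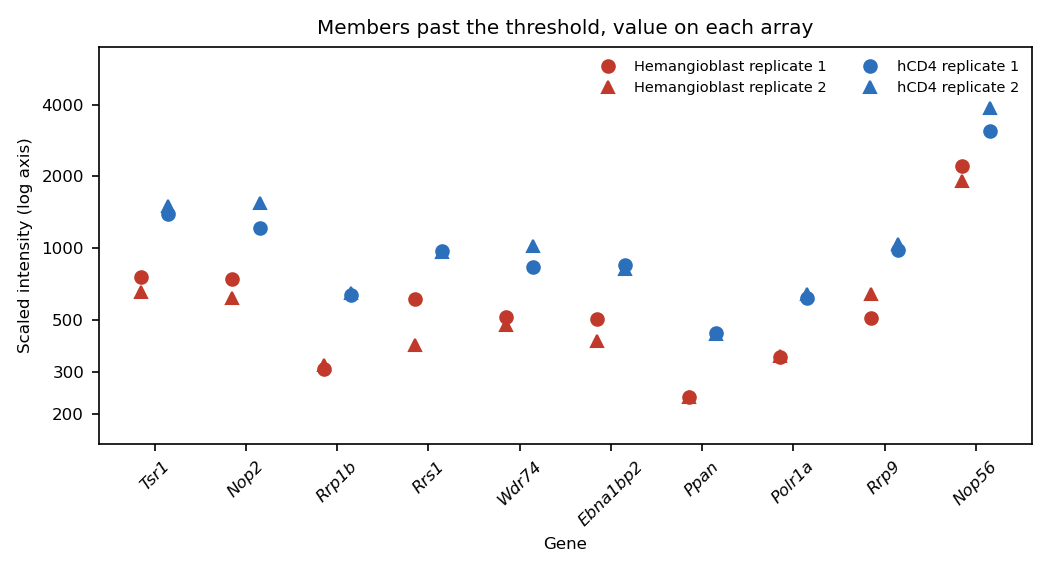
Scaled intensity on each array, on a log axis, for the 10 members past the threshold, with red for Hemangioblast, blue for hCD4, circles for replicate 1 and triangles for replicate 2. In each gene both red points lie below both blue ones, and the pairs of Ppan and Polr1a nearly coincide.

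More than 1 probe set was present for 14 members, and the one with the highest mean log2 value was used. Of the 15 other probe sets, 9 had a log2 change below -0.01, 4 above 0.01 and 2 within 0.01 of 0, and 0 passed in limma's fit. A mean scaled intensity under 200 was found for 11 of the 15. The second probe set of Ddx18, at 257 and 290 against 563 and 455, gave nearly the same log2 change as the first (-0.85, SE 0.202). For Polr1a the dimmer probe set gave -0.33 (SE 0.304), and for Tbl3 the alternative gave -0.52 (SE 0.201). For Imp4 and Polr1d dim probe sets gave 0.80 (SE 0.353) and 1.09 (SE 0.54), both higher on Hemangioblast without overlap. Those of Grwd1 and Polr1c gave 0.37 (SE 0.42) and 0.17 (SE 0.336), with overlap.

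A wider list of 124 other ribosome assembly genes held 70 measured ones. Of these, 4 fell and 0 rose, beside the 1.96% of all genes that were lower. At an unadjusted p under 0.05 in limma's fit, 23 were lower and 1 higher, beside 711 and 791 of all 8251 genes. Their median log2 change of -0.30 lay between that of the members and that of all genes, and 55 of 70 changes were below 0, beside 47.4% of all genes. Utp14a, of the small-subunit processome, was at 579 and 452 against 919 and 1014 (log2 change -0.90, SE 0.18, adjusted p = 0.0302). Mdn1, the giant ATPase that strips factors from the large-subunit precursor, was at 362 and 286 against 600 and 628 (log2 change -0.90, SE 0.192, adjusted p = 0.0381). The other called genes were Ruvbl2, an ATPase that takes part in snoRNP assembly (log2 change -0.83, SE 0.174, adjusted p = 0.0371), and Rsl1d1, a nucleolar protein (log2 change -0.73, SE 0.157, adjusted p = 0.0385). All 4 were lower in each of the 4 pairs of arrays. None of the 4 passed with median scaling (adjusted p = 0.0552 for Utp14a, 0.0689 for Ruvbl2, 0.0567 for Mdn1 and 0.0834 for Rsl1d1), without scaling, without an intensity trend, without Hemangioblast replicate 2 or without either hCD4 array. Mdn1 did not pass with quantile normalization either (0.0556), nor Rsl1d1 with averaged probe sets (0.153).

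**Figure D4:**
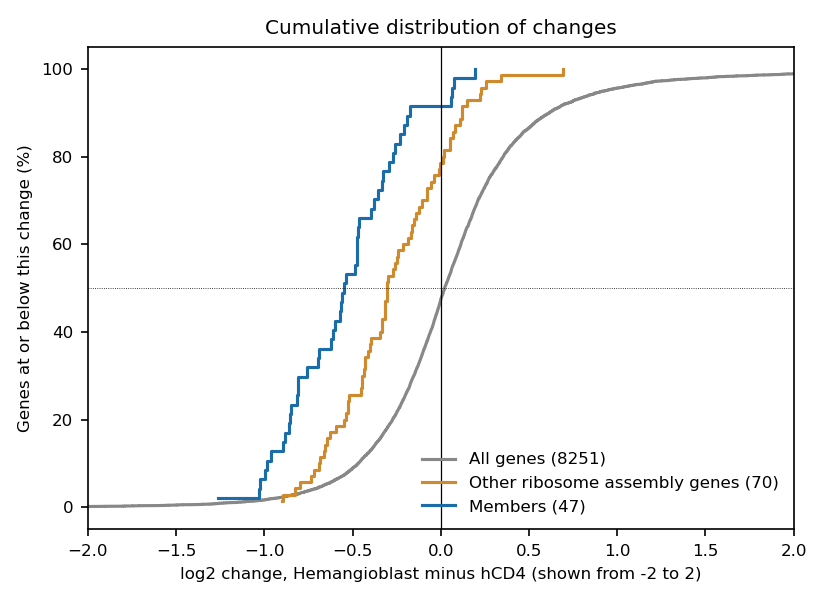
Cumulative share of genes by log2 change, Hemangioblast minus hCD4, for the 47 members, the 70 other ribosome assembly genes and all 8251 genes. The members' curve lies leftmost, with a median of -0.55 against -0.30 and 0.02.

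Promoters of members were searched because these genes shared a direction. The RefSeq table (GRCm38.p6) held a window of 250 bases before to 50 after the start for 41 of the 47 measured members, and each motif was sought on both strands. The 7 letters CCGGAAG, the core bound by Ets factors, were in 15 of 41 members (36.6%) and in 17.1% of the 6576 array genes with a window. The variant E-box CACGCG was in 16 of 41 (39.0%) against 17.9%, and CACGTG, the E-box bound by Myc and Max, in 6 of 41 (14.6%) against 11.5%. For AGATGGC the shares were 9.76% against 7.98%, and for CTCGCGA 7.32% against 3.79%. Among the 55 other ribosome assembly genes with a window CCGGAAG was in 49.1%, CACGCG in 34.5%, CACGTG in 23.6%, AGATGGC in 7.27% and CTCGCGA in 3.64%, so CCGGAAG and CACGTG had higher shares there than in the members. Over all 27025 genes of the table the 5 shares were 9.93%, 10.5%, 8.09%, 7.31% and 2.22% in the same order. The median GC content was 57.0% in members and 59.7% in array genes. None of these motifs contains another, though sites may overlap by a few letters, and a match is a string of letters, not a measured binding site.

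Of the 9 members past the threshold with a window, 5 held CCGGAAG, and their windows are shown because they carry the largest share of any motif among the called genes, a choice made after the shares were seen. The windows run 5′ to 3′ on the strand of the gene, with CCGGAAG and CACGTG in capitals. They lie at chr11:74897830-74898129 (plus strand) for Tsr1, chr6:125131633-125131932 (plus) for Nop2, chr19:8735589-8735888 (plus) for Wdr74, chr4:118620549-118620848 (plus) for Ebna1bp2 and chr9:20887925-20888224 (plus) for Ppan.
Tsr1: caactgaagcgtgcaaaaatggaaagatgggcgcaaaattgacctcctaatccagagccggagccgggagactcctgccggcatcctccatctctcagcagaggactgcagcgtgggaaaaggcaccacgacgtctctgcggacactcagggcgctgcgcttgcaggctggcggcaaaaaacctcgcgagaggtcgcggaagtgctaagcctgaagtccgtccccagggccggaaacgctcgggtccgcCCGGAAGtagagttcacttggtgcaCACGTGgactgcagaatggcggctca
Nop2: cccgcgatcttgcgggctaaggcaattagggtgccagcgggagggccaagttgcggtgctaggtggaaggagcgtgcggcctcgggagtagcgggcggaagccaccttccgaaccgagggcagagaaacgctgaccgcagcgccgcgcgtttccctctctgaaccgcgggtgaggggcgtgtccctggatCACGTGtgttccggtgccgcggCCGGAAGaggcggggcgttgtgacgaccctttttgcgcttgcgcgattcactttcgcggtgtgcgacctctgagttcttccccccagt
Wdr74: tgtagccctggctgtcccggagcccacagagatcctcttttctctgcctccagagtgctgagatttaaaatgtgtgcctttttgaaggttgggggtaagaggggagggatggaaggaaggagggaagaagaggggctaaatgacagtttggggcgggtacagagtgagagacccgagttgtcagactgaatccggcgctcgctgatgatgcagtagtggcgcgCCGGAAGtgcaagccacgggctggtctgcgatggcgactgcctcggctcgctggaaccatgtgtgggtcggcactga
Ebna1bp2: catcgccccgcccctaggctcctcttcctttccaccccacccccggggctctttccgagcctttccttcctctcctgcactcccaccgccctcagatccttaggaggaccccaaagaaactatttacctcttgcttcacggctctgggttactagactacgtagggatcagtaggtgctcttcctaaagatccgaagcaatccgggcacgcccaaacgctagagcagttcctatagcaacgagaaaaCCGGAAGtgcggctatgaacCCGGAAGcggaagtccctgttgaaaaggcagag
Ppan: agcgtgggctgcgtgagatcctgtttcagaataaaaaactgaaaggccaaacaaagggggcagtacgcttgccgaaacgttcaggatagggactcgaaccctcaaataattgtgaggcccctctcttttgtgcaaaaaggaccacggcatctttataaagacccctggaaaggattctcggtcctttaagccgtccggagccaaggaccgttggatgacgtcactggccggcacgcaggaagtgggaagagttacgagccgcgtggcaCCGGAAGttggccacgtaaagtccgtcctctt

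In Tsr1 the CCGGAAG begins 1 base before the start and CACGTG 24 bases after it, and in Nop2 they begin 38 and 60 bases before it. CCGGAAG begins 27 bases before the start in Wdr74, 18 after it in Ppan, and 3 before and 17 after it in Ebna1bp2. CACGTG was also found in Grwd1, Imp4, Pes1 and Wdr43, none of which passed the threshold. The 15 members with CCGGAAG had a median log2 change of -0.70 and the 26 without it -0.51, while for CACGTG the medians were -0.75 in 6 and -0.54 in 35, and for CACGCG -0.48 in 16 and -0.70 in 25. The ranges overlapped in each case and no test was made.

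Markers of cell types were read on the same arrays. Myeloid markers were higher on the Hemangioblast arrays in 9 of 10 genes, with a summed signal of 6586 and 7196 against 476 and 503, and Adgre1 was below 16 on both hCD4 arrays. Erythroid markers were higher in 6 of 8 measured genes, with sums of 28073 and 28624 against 7973 and 8437. Pluripotency markers were lower in 2 of 10 (4873 and 5066 against 7671 and 6055). Esrrb, which did not pass, made up most of the Hemangioblast sums (3343 and 3476, against 3165 and 3579). The 2 lower were Pou5f1 (104 and 144 against 1526 and 585) and Dppa5a (310 and 169 against 1397 and 745). The hCD4 pair was uneven here, with a median log2 difference, replicate 1 minus replicate 2, of 0.63. Replicate 1 was the higher for 6 of the 10. Mesoderm and hemangioblast markers were lower in 4 of 8 (3093 and 3478 against 6921 and 7704), namely Kdr, Etv2, Gata2 and Eomes. All 8 had log2 changes below 0, so these markers do not bear out the title Hemangioblast. Of endothelial markers 1 of 5 was higher (2301 and 1937 against 1491 and 1859), and of fibroblast or feeder markers 1 of 8 was higher and 1 lower (2139 and 2623 against 2241 and 2032). Proliferation markers had 0 of 13 past the threshold in limma's fit, with 5 lower and 1 higher at an unadjusted p under 0.05, a median log2 change of -0.26 and sums of 17710 and 16540 against 20057 and 20061. Their part in the lower signal of ribosome assembly genes was not tested.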

How the data were processed

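For every probe set the authors deposited a linear intensity on each array. How it was computed, background-corrected or scaled is not given in the sources used here. Of 12488 probe sets, 66 controls were left out. Each array was scaled to the average trimmed mean (2% trimmed at each end; factors 0.939 and 1.05 for Hemangioblast, 0.936 and 1.09 for hCD4), and 16 was added before log2. Median intensity before scaling was 165 to 197. Groups were taken from the titles and compared, Hemangioblast minus hCD4, with limma 3.58.1 in R 4.3.3 (lmFit, eBayes with an intensity trend, 2 residual degrees of freedom), two-sided, adjusted by Benjamini-Hochberg over 12422 probe sets. The fit was tested on simulated data with independent normal noise, which cannot show whether the calls made here are right. With 2 arrays a group the number of arrays limits the precision, and the median SE of a log2 change was 0.27.

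Genes were named from the platform annotation (10833 probe sets with 1 symbol, 396 with several, 1193 with none), checked by gene identifier against RefSeq (10817 found, 0 changed). The probe set with the highest mean log2 value stands for a gene, a rule taken after member values were seen in place of the highest mean intensity, which is given as an added alternative. Members, lists, motifs and tests were chosen with earlier results of these data known. Values on every array are given for members past the threshold and, in each role, for those with the largest change in each direction and the highest signal, with some others named after their values were seen. Figures used matplotlib 3.10.9 in Python 3.11.15. The alternatives were other added constants, scalings and variance models, a filter on dim probe sets, averaged probe sets, each array left out and a replicate block.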

Additional observations from a re-analysis of the deposited data

How the results depend on the processing

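The count of 10 lower members was 0 without scaling between arrays and 0 without an intensity trend (limma, 22 and 21 at an unadjusted p under 0.05), and 17 with probe sets under a mean of 100 left out. In the same settings the probe sets past the threshold, 556 in the reported fit (362 higher, 194 lower), numbered 272 (222 higher, 50 lower), 220 (188 and 32) and 853 (497 and 356). With 1 array left out, members past the threshold ran from 0 to 14, all lower, the members' median log2 change from -0.67 to -0.38, and all probe sets past the threshold from 219 to 517. The count was 0 without either hCD4 array, and the cause was not tested. With an added constant of 1 it was 15, with 64 it was 8, with median scaling 9, with quantile normalization 8 and with averaged probe sets 10, and 0 members were higher in any of the settings tried. Of the 10 called members, 10 passed with an added constant of 1, 8 with 64, and 7 each with median scaling, quantile normalization and averaged probe sets.

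In an alternative chosen after seeing the data, the probe set with the highest mean intensity stood for a gene. The count of 10, the same 10 members and the median of -0.55 were kept. Among members, Tbl3 alone had another probe set (log2 change -0.52 in place of -0.17), the small-subunit median was -0.46 in place of -0.38, members lower at an unadjusted p under 0.05 were 32 in place of 31, and of all genes 283 were higher and 161 lower in place of 280 and 162.

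The replicate number as a block gave 13 lower members and 710 probe sets. Replicate differences of the groups correlated across probe sets with r of -0.01, which cannot tell whether arrays of the same number share a culture or a batch.

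Signs turned for 6 members. With median scaling the log2 change was -2.9e-05 for Wdr12, -0.024 for Wdr75 and -0.028 for Ubtf, and with quantile normalization -0.052 for Wdr12. With averaged probe sets it was 0.21 for Imp4 and 0.24 for Polr1d. With 1 array left out the change ran from -0.13 to 0.27 for Wdr12, -0.20 to 0.31 for Ubtf, -0.068 to 0.19 for Wdr75 and -0.72 to 0.14 for Ddx10.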

Other observations

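The RNA exosome, which trims the ends of ribosomal RNA precursors, did not share one direction, and its genes are named here after their values were seen. Of its 5 measured subunits, Exosc7 had a log2 change, Hemangioblast minus hCD4, of -0.52 (SE 0.157), Exosc10 of -0.32 (SE 0.226), Exosc4 of -0.15 (SE 0.185), Exosc5 of 0.12 (SE 0.162) and Exosc8 of 0.23 (SE 0.192). None passed the threshold in limma's fit, and 1 of the 5, Exosc7, had an unadjusted p under 0.05. The exosome cofactor C1d was at 317 and 320 on the Hemangioblast arrays against 209 and 175 on those of hCD4. Its groups did not overlap and its log2 change of 0.69 (SE 0.22) was the highest of the 70 other ribosome assembly genes, but it did not pass either. The ribosome export and release factors Eif6, Sbds, Nmd3 and Lsg1 had log2 changes of -0.53 (SE 0.179), -0.21 (SE 0.152), -0.14 (SE 0.205) and 0.05 (SE 0.192), none past the threshold.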
